A study of Homo sapiens with 2 samples.

Results

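Open chromatin regions that kept a peak in G401 cells after MAK683 but at a DMSO height at least 2 times the MAK683 height were examined. A merged region was formed from overlapping peaks of a DMSO library and a MAK683 library on chromosomes 1 to 22, and 56828 of 196615 merged regions held peaks of both libraries. The height of a region in a library was its largest pileup, the number of tags over a peak summit, per 1000000 tags of that library (RPM). Regions were eligible when their DMSO height reached 1 RPM, and 23396 shared regions did. Members were chosen by a log2 ratio of MAK683 height to DMSO height of -1 or less. They numbered 2456, or 10.5% of eligible regions. Because the members were selected on these heights, the heights and ratios below describe them and are not evidence for them.

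G401 is an established line from a rhabdoid tumor of the kidney that lacks SMARCB1, a subunit of the BAF (SWI/SNF) chromatin remodeler. One culture received the solvent DMSO and the other received MAK683 at 3 µM, each for 3 days, and each gave 1 ATAC-seq library. MAK683 binds EED, a core subunit of Polycomb repressive complex 2 (PRC2). With 1 library per group no difference could be tested, no p-value was computed, and a change due to MAK683 cannot be told apart from a difference between cultures or library preparations.

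In ATAC-seq the Tn5 transposase cuts DNA that is not wrapped in nucleosomes, so tags pile up over active promoters, enhancers and sites held open by factors such as CTCF. Promoters of housekeeping genes are usually open and rich in GC and CpG, while enhancers lie away from promoters and are poorer in both. PRC2 methylates histone H3 on lysine 27 and keeps its target genes closed, so loss of its activity is known for opening chromatin at those targets.

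The DMSO library held 16598348 tags after filtering and the MAK683 library 18265284, so 1 tag was worth 0.0602 and 0.0547 RPM. A DMSO height of 1 RPM needed at least 17 tags, and the lowest peak of either library held 6. No peak of either library lay in the gene body of SMARCB1. The blood genes PTPRC and CD3E were without a promoter peak, and the mesenchymal gene VIM had one of 2.65 RPM in DMSO and 2.24 RPM in MAK683. The endothelial gene CDH5 had no DMSO peak and 0.602 RPM in MAK683. The epithelial genes CDH1 and EPCAM had peaks in both libraries, of 1.08 and 0.723 RPM in DMSO.

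The bases up to 100 bp to each side of the DMSO summit, here called the summit window, are shown for 6 named members as examples of the sequence types compared below. They are read from GRCh37 (hg19) on the plus strand, and capitals mark matches on either strand to the AP-1 letters TGANTCA, the ETS letters CCGGAAG, the SP/KLF letters GGGCGG, the NF-Y letters CCAAT and a CTCF motif. The window near MYOF (chr10:95191218-95191418) is intronic and 50773 bp downstream of its transcription start site (TSS), and its AP-1 match overlaps a CCAAT match. The window near CCN2 (chr6:132275957-132276157) lies at -3545 bp from that TSS (minus signs mark upstream positions) and holds an AP-1 match. The windows near DDX27 (chr20:47833724-47833924, intergenic, -2129 bp from the TSS) and ENSG00000272836 (chr22:50645136-50645336, intronic by the annotation, -745 bp from the TSS of that noncoding gene) hold a CTCF match. The remaining windows cover the TSS of a noncoding gene, LRRC8C-DT (chr1:90098471-90098671) with 4 SP/KLF matches and ENSG00000258199 (chr12:56584011-56584211) with an ETS match, near SMARCC2.
MYOF: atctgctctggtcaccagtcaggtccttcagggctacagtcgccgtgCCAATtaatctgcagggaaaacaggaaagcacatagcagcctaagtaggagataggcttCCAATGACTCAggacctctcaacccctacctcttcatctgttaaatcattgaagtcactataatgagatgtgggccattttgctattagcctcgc
CCN2: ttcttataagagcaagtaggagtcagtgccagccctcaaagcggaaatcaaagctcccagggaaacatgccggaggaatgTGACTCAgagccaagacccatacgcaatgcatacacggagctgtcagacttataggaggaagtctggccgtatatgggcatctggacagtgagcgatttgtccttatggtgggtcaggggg
DDX27: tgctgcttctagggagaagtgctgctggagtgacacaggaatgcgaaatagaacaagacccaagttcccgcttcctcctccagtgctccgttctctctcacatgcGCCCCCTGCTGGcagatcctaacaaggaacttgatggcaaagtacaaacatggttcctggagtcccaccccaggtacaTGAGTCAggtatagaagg
ENSG00000272836: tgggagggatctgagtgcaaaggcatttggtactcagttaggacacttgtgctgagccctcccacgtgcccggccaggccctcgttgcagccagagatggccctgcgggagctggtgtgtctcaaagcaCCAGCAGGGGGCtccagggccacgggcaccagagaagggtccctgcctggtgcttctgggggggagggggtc
LRRC8C-DT: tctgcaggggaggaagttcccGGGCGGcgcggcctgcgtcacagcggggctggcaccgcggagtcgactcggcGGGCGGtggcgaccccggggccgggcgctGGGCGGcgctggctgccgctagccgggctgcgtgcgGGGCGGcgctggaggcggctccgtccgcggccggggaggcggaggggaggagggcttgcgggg
ENSG00000258199: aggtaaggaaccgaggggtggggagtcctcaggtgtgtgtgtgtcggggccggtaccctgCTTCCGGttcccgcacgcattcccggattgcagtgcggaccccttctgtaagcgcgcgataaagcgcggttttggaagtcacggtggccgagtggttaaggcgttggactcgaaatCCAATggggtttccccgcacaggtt

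Members were mostly low and just past the threshold. Their DMSO heights ran from 1.02 to 4.52 RPM with a median of 1.45 (24 tags), and their MAK683 heights from 0.328 to 2.14 RPM with a median of 0.602 (11 tags). The median log2 ratio was -1.14, a ratio of 0.454, and the lowest was -2.38. Only 164 members had a log2 ratio of -1.5 or less, and 2 had -2 or less. At the threshold, 91 eligible regions shared a log2 ratio of -1.0006, such as those near MALSU1 (60 tags in DMSO, 33 in MAK683), SFT2D2 and CUTC (each 40 and 22 tags), and were inside. Just outside lay the regions near BIRC6 (69 and 38 tags, -0.9987) and near MFSD14A and PRMT7 (each 49 and 27 tags, -0.9979).

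The decrease was common to eligible regions and members were its lower end. Of all eligible regions 93.0% had a log2 ratio below 0, and their median was -0.53, a ratio of 0.692. The 95% counting interval of the ratio covers counting error only and no variation between cultures or library preparations. It ended below 0 for 2038 members (83.0%), which are 8.71% of eligible regions. It ended below the median of eligible regions for 115 members (4.68%). For the other members the interval reached that median. The interval rests on the tags that chose the members, so both counts describe them and are not evidence for them. Such intervals among the other eligible regions are not given here. With the ratio taken relative to the median of eligible regions, 113 regions (0.483%) were at -1 or less.

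The count also rested on which library sets eligibility. Among the 16077 shared regions with a MAK683 height of at least 1 RPM, 391 (2.43%) had a log2 ratio of -1 or less and 407 (2.53%) had 1 or more, with a median of -0.38. With a mean height of both libraries of at least 1 RPM, 1295 of 19579 regions (6.61%) were at -1 or less and 150 (0.766%) at 1 or more. A further 551 DMSO regions of at least 1 RPM had no MAK683 peak and are not members, and the highest of them reached 1.75 RPM (29 tags).

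**Figure D1:**
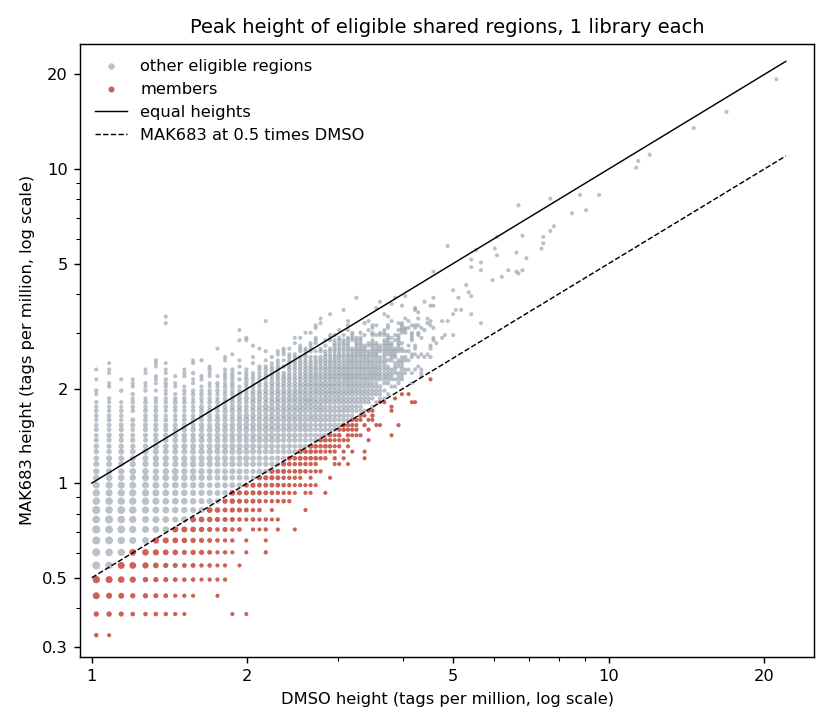
Height in the DMSO library (x axis, RPM, log scale) against height in the MAK683 library (y axis, RPM, log scale) for the 23396 eligible regions, 1 point per pair of tag numbers with a larger point for more regions. The 2456 members (red) lie on or under the dashed line of log2 ratio -1, and above 4.52 RPM in DMSO there is no member.

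The tallest members were mainly promoters, and so were other tall eligible regions. At 3 RPM and over in DMSO, 79 of 88 members and 1339 of 1491 other eligible regions lay within 3 kb of a TSS. Of the 12 members with the greatest DMSO height, 9 had their DMSO summit within 100 bp of a TSS. They ranged from 60 to 75 tags in DMSO and from 26 to 39 tags in MAK683, with log2 ratios from -1.41 to -1.02. The intervals of both libraries did not overlap for any of the 12. The counting interval of the ratio ended below the median of eligible regions for only 6 of the 12.

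The member of greatest DMSO height lay away from promoters, 51767 bp from the TSS of UTP25, which encodes a factor of ribosome assembly (chr1:210051850-210060713, intergenic). It had 4.52 RPM (75 tags) in DMSO and 2.14 RPM (39 tags) in MAK683, a log2 ratio of -1.08. Its 8864 bp held a single DMSO peak and 3 MAK683 peaks, so it was open over a long stretch. The region at NDUFS1, the largest subunit of respiratory complex I, had 3.80 RPM in DMSO and 1.70 RPM in MAK683, a log2 ratio of -1.16 with a counting interval of -1.78 to -0.54. It lay at chr2:207022910-207026399 (summit at -134 bp from the TSS) and held an ETS match. DHFR2, a mitochondrial dihydrofolate reductase gene, had the same DMSO height of 3.80 RPM and 1.75 RPM in MAK683, a log2 ratio of -1.12.

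Among the other tall promoters, CAPN7, which encodes a calpain protease, had 3.92 RPM in DMSO and 1.53 RPM in MAK683, a log2 ratio of -1.35 (-1.99 to -0.71). Its summit lay in an annotated UTR at -39 bp from the TSS, and the window there had 80.1% GC. IGSF9B, an adhesion molecule of the immunoglobulin superfamily, had 4.16 and 1.81 RPM, and the noncoding LRIG2-DT had 4.22 and 1.81 RPM. The lowest log2 ratio of the tall members, -1.41, was at MUC20-OT1, where 3.80 RPM in DMSO stood against 1.42 RPM in MAK683. There 2 DMSO peaks and 4 MAK683 peaks were merged over 5742 bp, and the summits were in an intron. The promoter of NBPF15 (4.10 and 1.92 RPM) belongs to a repeated gene family, and its summit window matched 3 places of the genome, so its tags are uncertain. TM2D1 (3.98 and 1.92 RPM), PDXDC1 (3.68 and 1.81 RPM) and LRRC8C-DT (3.61 and 1.53 RPM) were also among the 12.

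The members with the lowest ratios were smaller and farther from promoters than the 12 tallest. Among all eligible regions the lower ones were also more often distal, with 6113 of 10166 from 1 to 1.5 RPM and 161 of 1579 at 3 RPM and over. Of the 12 with the lowest ratios, 1 had its summit within 100 bp of a TSS and 6 had it at least 3 kb away. They held 23 to 36 tags in DMSO and 7 to 11 in MAK683, so the MAK683 value of many lay close to the lowest listed pileup. Their log2 ratios ran from -2.38 to -1.85, and for all 12 the counting interval ended below the median of eligible regions. The member near ZNF770, a zinc finger gene, lay in an intron 1373 bp downstream of the TSS (chr15:35278700-35279593). It had 1.99 RPM (33 tags) in DMSO and 0.383 RPM (7 tags) in MAK683, a log2 ratio of -2.38 with an interval of -3.55 to -1.20. The next was in an intron of CTNNBL1, which encodes a protein associated with the spliceosome, with 1.87 RPM in DMSO and 0.383 RPM in MAK683 and a log2 ratio of -2.28 (-3.47 to -1.10). The intronic region of MYOF, the membrane repair protein myoferlin, had 1.75 RPM in DMSO and 0.438 RPM in MAK683, a log2 ratio of -2.0 (-3.13 to -0.87). Its DMSO and MAK683 summits were at positions 95191318 and 95192386 of chromosome 10, so the tallest points of the libraries were not the same site.

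Only PPP1R8, an inhibitor of protein phosphatase 1, was a promoter in the strict sense among them, with 1.81 RPM in DMSO and 0.493 RPM in MAK683 and a log2 ratio of -1.88 (-2.95 to -0.80). The region near DDX27, an RNA helicase gene, had the same heights, and its summits in both libraries were 2 bp apart, beside the CTCF match shown above. The region near ENSG00000272836, also with a CTCF match, had 1.45 RPM in DMSO and 0.383 RPM in MAK683. A region at -4904 bp from the TSS of PSMA3, a proteasome subunit gene, had 2.17 and 0.602 RPM, a log2 ratio of -1.85. The remaining members of the 12 lay near NPTN, ANKLE2, the microRNA gene AL139300.1 and the noncoding genes ENSG00000262202 and ENSG00000286810.

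**Figure D2:**
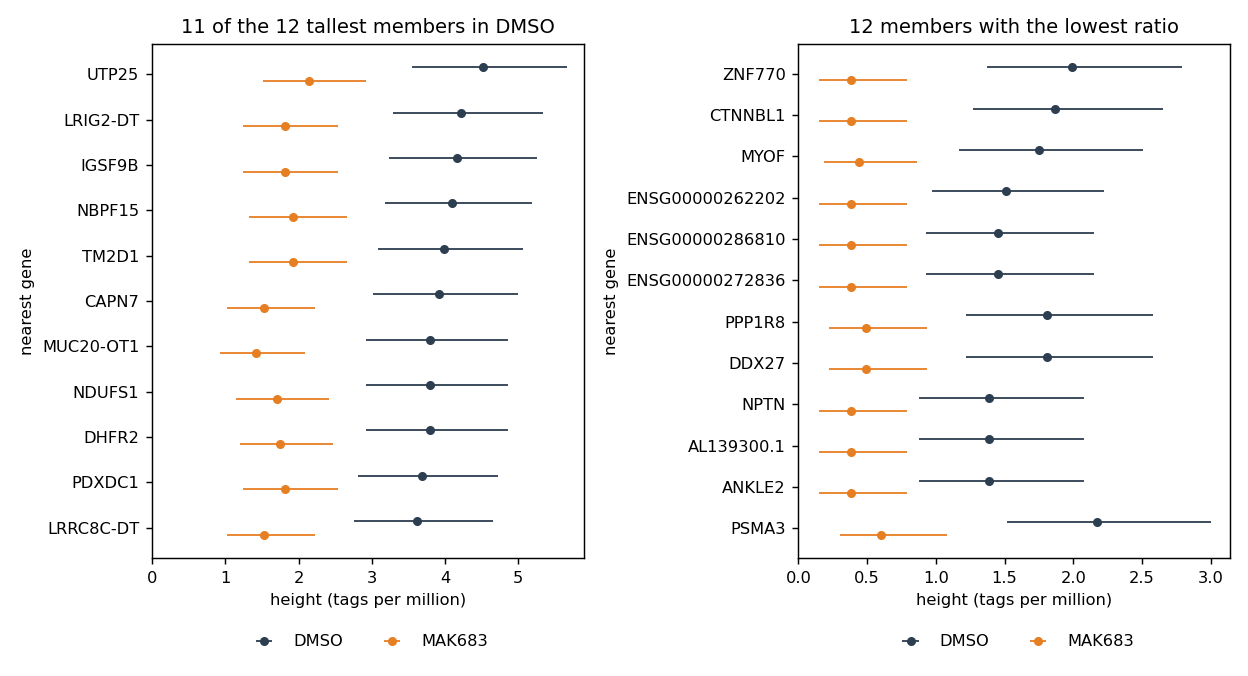
Heights (x axis, RPM) of 11 of the 12 members tallest in DMSO (left) and of the 12 with the lowest log2 ratio (right), named by the nearest gene, with 1 value per library and exact Clopper-Pearson 95% intervals of the tags. The intervals of the libraries are apart in all 23 members shown, and those of the right panel rest on 7 to 11 MAK683 tags.

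Position in the genome was not used to choose the members. Members lay within 3 kb of a TSS less often than other eligible regions, at 45.4% (95% Wilson interval 43.5 to 47.4%) against 61.5% (60.9 to 62.2%). Seen from the other side, 7.97% of the 14000 eligible regions near a TSS and 14.3% of the 9396 distal ones were members. The gap was present at low and middle heights. Between 1 and 1.5 RPM in DMSO, 9.82% of proximal and 14.4% of distal regions were members, and between 2 and 3 RPM the shares were 7.09% and 12.9%. At 3 RPM and over they were 5.57% of 1418 proximal and 5.59% of 161 distal regions, with an interval of 2.97 to 10.3% for the latter. Leaving out weaker peaks, those with a −log10 q under 10, kept 641 of the 2456 members. Of these, 71.6% (68 to 75%) lay within 3 kb of a TSS, against 67.9% of the others, so the direction turned narrowly under this limit. With a DMSO height of at least 2 RPM instead it did not turn, with 75.4% of members and 85.1% of the others.

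The position of the summit refined this. Summits less than 100 bp from a TSS were members in 8.46% of cases, those from 100 to 300 bp in 4.81%, and those from 3 to 10 kb in 13.7%. Of the members, 46.7% had the summit in an intron against 40% of other eligible regions, 33.5% against 34.4% between genes, and 10.5% against 13.9% in an untranslated region. The nearest TSS was that of a protein-coding gene for 52.3% of members and 58.7% of the others, and that of a long noncoding RNA for 27.7% and 25.1%. The median length was 1268 bp for members and 1752 bp for other eligible regions, and over all places members were shorter in each class of DMSO height. Length depends on the same peaks as the heights, so it is given as a description.

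Base composition moved with membership as well. The summit window had a median GC content of 56.2% in members and 61.7% in other eligible regions, and the median ratio of observed to expected CpG was 0.354 against 0.572. Without peaks of a −log10 q under 10, the GC medians were 63.2% and 63.7%, and with a DMSO height of at least 2 RPM they were 63.4% and 66.2%. Of the regions with under 45% GC, 19.6% (17.8 to 21.5%) were members, and of those with 75% or more, 5.51% (4.66 to 6.50%). The fall held on both sides of the 3 kb line, from 18.2% to 5.12% near TSSs and from 20% to 9.35% in distal regions. At equal GC the distal share was above the proximal one in each of the 8 classes. The gap was smallest under 45% GC and between 60 and 65% (8.26% and 10.1%), with overlapping intervals. Intervals also overlapped from 45 to 50%, from 65 to 70% and, narrowly, at 75% and over. From 50 to 55% they met at 13.2%. From 55 to 60% GC it was 9.35% (8.10 to 10.8%) against 13.5% (12 to 15.2%), and from 70 to 75% it was 6.05% (5.2 to 7.03%) against 9.94% (7.27 to 13.5%), with intervals apart. Height did not remove the gradient below 3 RPM. From 1 to 1.5 RPM the share was 16.2% under 55% GC and 7.43% at 65% GC and over, and from 2 to 3 RPM it was 13.0% and 6.19%. In the tallest class, 3 RPM and over, it was 5.99% (3.53 to 9.98%) and 4.47% (3.26 to 6.10%), with overlapping intervals. ATAC-seq libraries can differ in the amplification of DNA of different GC content, and the part of such a difference in this gradient was not tested.

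**Figure D3:**
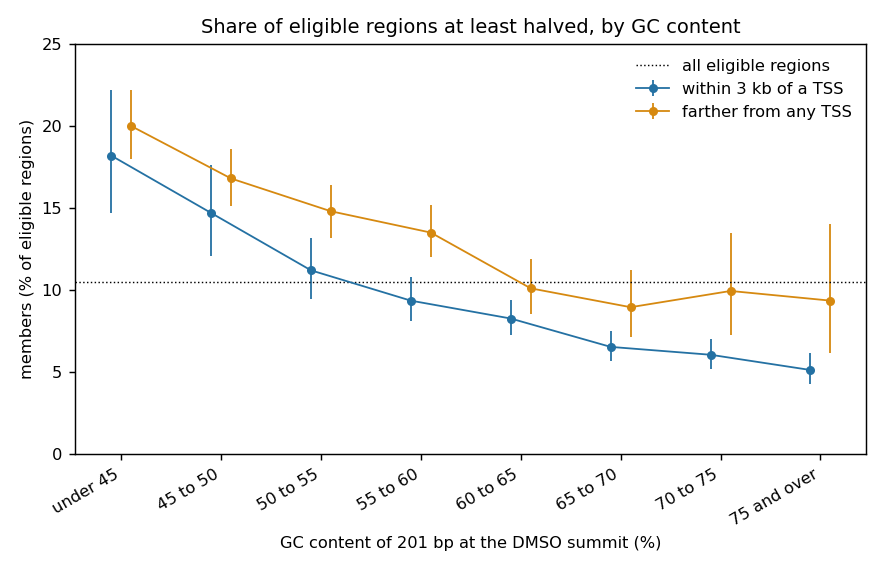
Share of eligible regions that were members (y axis, %) by GC content of the summit window (x axis, %), for regions within 3 kb of a TSS and farther away, with 95% Wilson intervals. Under 45% GC the points are at 18.2% near TSSs and 20% away from them, both lines fall up to the class of 60 to 65% GC, and the distal points lie above the proximal ones. The dotted line is the 10.5% of all eligible regions.

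The GC content of the surrounding 200 kb behaved differently from that of the summit. Near TSSs the share of members rose with it, from 5.25% (3.89 to 7.04%) where the surroundings had under 38% GC to 10.0% (9.05 to 11.1%) at 50% and over. Among proximal regions with a summit GC of 65% or more, the rise was from 1.56% (0.716 to 3.36%) to 8.54% (7.36 to 9.89%). Promoters of high GC inside AT-rich surroundings, with 6 members of 385, had the lowest share of the classes made from place, summit GC and regional GC. With a proximal summit GC under 55% there was no such rise, with 18.8% at the lowest and 13.1% at the highest regional GC. Distal regions as a whole went from 20.6% under 38% to 14.0% at 50% and over, but those with a summit GC of 65% or more went from 4.58% (2.12 to 9.63%) between 38 and 42% to 12% (9.61 to 15%) at 50% and over. By chromosome the share ran from 6.17% on chromosome 21 (14 of 227, 3.71 to 10.1%) to 14.4% on chromosome 22 (67 of 465, 11.5 to 17.9%). Chromosomes 20 (14.0%), 17 (13.5%) and 19 (12.6%) followed, and chromosome 14 (7.69%) was next to the lowest. Copy number of chromosomes in G401 was not analysed here.

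The letters of 30 transcription factor motifs were searched on both strands of the summit windows. A match is a description and not a bound site. The AP-1 letters TGANTCA, the site of FOS and JUN factors, were in 3.05% of proximal members and 3.02% of other proximal regions. In distal regions they were in 5.75% of members (4.62 to 7.12%) and 6.72% of the others (6.19 to 7.28%), so regions with an AP-1 match were members about as often as the rest. The CTCF motif was in 7.76% of distal members (6.45 to 9.32%) and 9.32% of the others (8.71 to 9.98%). CTCF anchors chromatin loops. The AP-1 and CTCF matches shown for MYOF, CCN2, DDX27 and ENSG00000272836 are therefore of kinds that members held no more often than other regions.

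The ETS letters CCGGAAG, bound by ETS factors at many housekeeping promoters, were more frequent at proximal members. They were in 15.8% of them (13.8 to 18.0%) and in 11.4% of the other proximal regions (10.9 to 12%), and 11.8% of all proximal eligible windows held them. The difference was seen in each of the 4 height classes, as 8.04% against 5.64% from 1 to 1.5 RPM and 20.5% against 15.2% from 2 to 3 RPM. By summit GC it was absent under 55% (2.76% and 2.80%) and present from 55 to 65% (18.6% and 13.0%) and at 65% and over (21.8% and 12.8%). For the 113 regions chosen relative to the median, the letters were in 8.33% of proximal ones (3.29 to 19.6%) and 11.8% of the others. That wide interval includes the share of the others, so it shows no order. In distal regions the letters were rare, in 1.49% of members and 2.07% of the others. The YY1 letters ATGGCGG, another promoter motif, were in 6.27% of proximal members (4.99 to 7.85%) and 4.65% of the others (4.30 to 5.03%), and these intervals overlap narrowly.

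The SP/KLF letters GGGCGG, the GC box of many promoters, went the other way. They were in 45% of proximal members (42.1 to 47.9%) and 55% of the others (54.2 to 55.9%), and in 11.3% and 16.4% of distal windows. Within classes of summit GC the proximal difference was small, with 77.8% against 75.6% at 65% GC and over, where members held them more often, and 34.8% against 39.4% from 55 to 65%. At 3 RPM and over it was turned as well, with 70.9% against 65%. The TCF/LEF letters TTCAAAG were in 2.69% of proximal members and 1.33% of the others, and the homeobox letters TAATTA in 1.34% and 0.582%, both in few windows. Among distal regions, only the CEBP letters TTGCNNAA were more frequent in members with intervals apart, at 8.81% (7.40 to 10.4%) and 6.57% (6.05 to 7.13%). With 30 motifs in each class, some intervals can lie apart by counting error alone. Of all eligible windows near TSSs and away from them, 3.02% and 6.58% held the AP-1 letters, 2.36% and 9.1% the CTCF motif, 54.2% and 15.6% the SP/KLF letters, 4.78% and 0.968% the YY1 letters and 3.79% and 6.89% the CEBP letters. The TCF/LEF letters were in 1.44% and 3.18% of these windows and the homeobox letters in 0.643% and 2.01%. The ETS comparison within GC and height classes was chosen after the motif shares had been seen.

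The intervals of members and others overlapped for the remaining motifs in both classes. With both classes pooled, the intervals were apart for TEAD (12.5% of members against 10.1%), GATA (4.64% against 3.33%), single nuclear receptor sites (11.5% against 8.86%) and WT1/EGR (3.14% against 4.55%). Over all eligible regions, 23.7% of windows held the NF-Y letters CCAAT and 17.3% held the letters CAGGTG of the ZEB and SNAI repressors. The CAGCTG type of E-box was in 14.1% of windows, and the TGACAG letters of MEIS and TGIF factors were in 10.9%. TEAD factors were searched by GGAATG, found in 10.4% of windows, and RUNX factors by TGTGGT, found in 10.1%. Single nuclear receptor sites, searched by AGGTCA, were in 9.13% and single NFI sites, searched by TTGGCA, were in 6.99%. The CACGTG type of E-box was in 5.44% of windows and the WT1 and EGR letters GCGTGGG were in 4.4%. The IRF letters GAAANNGAA were found in 3.75% of windows, whereas the GATA letters AGATAA were found in 3.47%. FOX factors, searched by TGTTTAC, had 1.77% and SOX factors, searched by ACAATGG, had 1.48%. The CRE letters TGACGTCA were in 1.41% of windows and the NRF1 letters GCGCATGCG in 1.21%. Under 1% of windows held the NF-kB letters GGGANTTTC (0.786%), the SRF CArG motif (0.774%), the T-box letters AGGTGTGA (0.71%), the octamer ATGCAAAT (0.667%), the SMAD letters GTCTAGAC (0.124%) and the p53 motif (0.0128%). These shares count windows and say nothing about binding, and one stretch of bases can match several motifs.

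**Figure D4:**
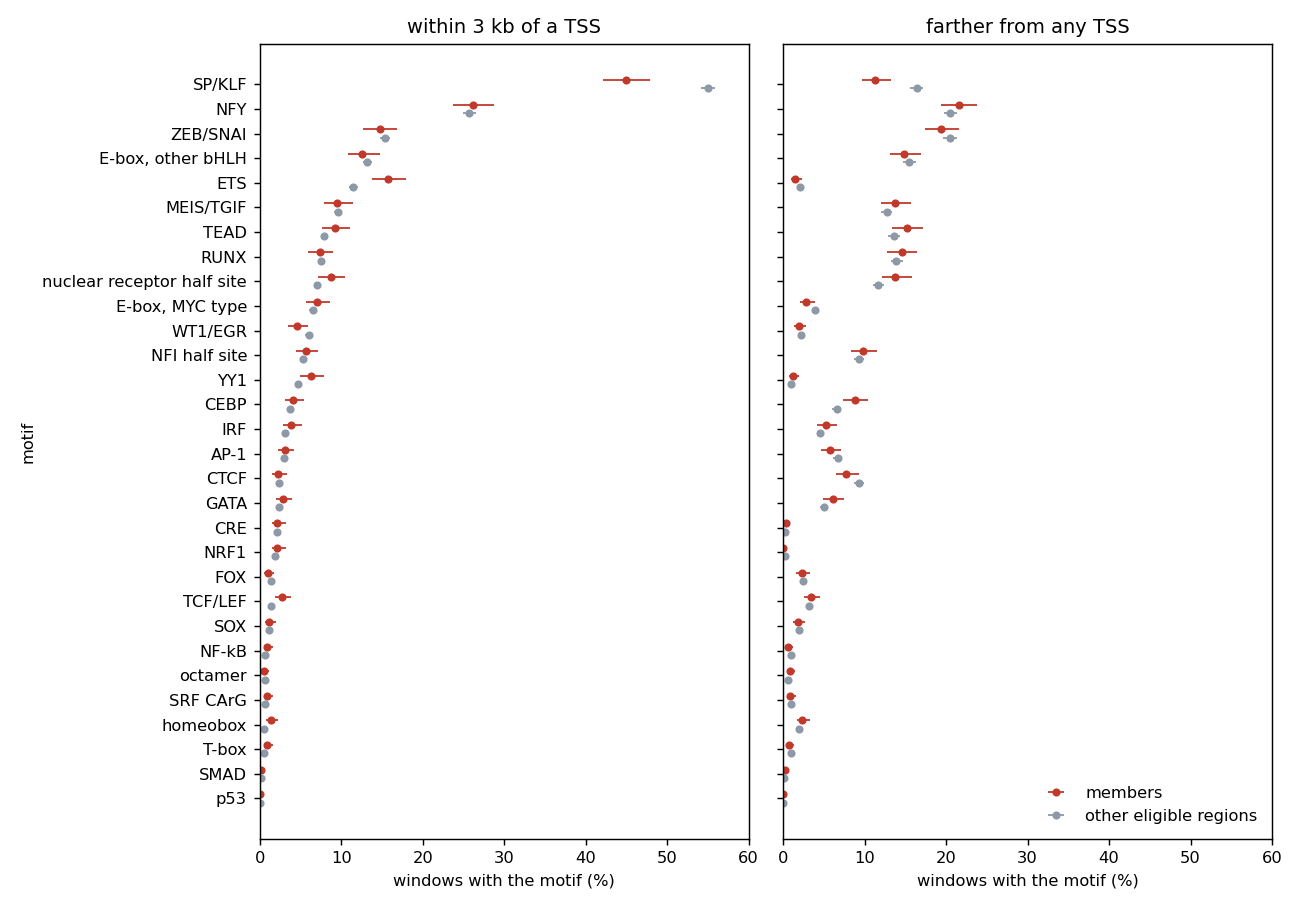
Share of summit windows holding each of 30 motifs (x axis, %) in members and in other eligible regions, within 3 kb of a TSS (left) and farther away (right), with 95% Wilson intervals. Near TSSs the ETS point of members, 15.8%, lies above that of the others, 11.4%, and the SP/KLF point lies below, 45% against 55%. The AP-1 and CTCF intervals of members and others overlap in both panels.

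Genes were then followed through their tallest eligible region within 3 kb of the TSS. Of 11778 protein-coding genes with such a region, 822 (6.98%) had a member there, and 5682 had a log2 ratio below the median of all eligible regions. Genes of the respiratory chain, which carries electrons to oxygen and makes ATP in mitochondria, stood at 11 of 63, or 17.5% (10.0 to 28.6%). The interval lies above the 6.98%, and 43 of the 63 were below the median of eligible regions. With 17 lists compared, an interval can lie apart by counting error alone. The median log2 ratio of the list was -0.72, against -0.52 for all protein-coding genes. Besides NDUFS1, the tallest were ATP5PB, a subunit of ATP synthase, with 2.95 RPM (49 tags) in DMSO and 1.42 RPM (26 tags) in MAK683, and SDHC of complex II with 2.47 and 1.09 RPM. The summit of the ATP5PB region lay at -188 bp from its TSS and nearer, at -20 bp, to that of WDR77. SDHB had 2.23 RPM in DMSO and 1.09 RPM in MAK683. The log2 ratios of ATP5PB, SDHC and SDHB were -1.05, -1.17 and -1.03.

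Complex II, succinate dehydrogenase, has few subunits, and these were looked up after the values had been seen. SDHA was also a member, at a promoter it shares with CCDC127, with 2.17 RPM in DMSO and 1.04 RPM in MAK683 and a log2 ratio of -1.06. SDHD was not, with 2.29 and 1.37 RPM and a log2 ratio of -0.74. Also named after their values were seen, the other members of the list were NDUFA12, UQCRC1, NDUFC2, ATP5F1D, ATP5F1A and NDUFA10, between 1.57 and 2.11 RPM in DMSO. ATP5F1D had the lowest log2 ratio of the list, -1.62 (28 tags in DMSO, 10 in MAK683), and its summit lay 2825 bp downstream of the TSS.

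Cytosolic ribosomal protein genes stood at 8 of 71, or 11.3% (5.82 to 20.7%), an interval that includes 6.98%. Of the 71, 50 were below the median of eligible regions, and the list median was -0.69. RPL24 had 3.31 RPM (55 tags) in DMSO and 1.42 RPM (26 tags) in MAK683, a log2 ratio of -1.22. RPL35, at a promoter shared with ARPC5L, had 3.13 and 1.48 RPM, a log2 ratio of -1.08. RPL4, at a promoter shared with ZWILCH, had 2.17 RPM in DMSO and 0.766 RPM in MAK683 and the lowest log2 ratio of the list, -1.5. RPL30 followed with 2.11 and 1.04 RPM. The genes RPL8, RPSA and RPLP0, named after their values were seen, had a member within 3 kb that was not their tallest region. At RPL8 the member, over the TSS, had 1.81 RPM in DMSO and 0.821 RPM in MAK683, while a taller region nearby had 3.19 and 2.24 RPM.

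Of the DNA replication genes, 4 of 35 (11.4%, 4.54 to 26.0%) had a member as tallest region, with the 6.98% of all protein-coding genes inside the interval. ORC5, of the origin recognition complex, had 2.59 RPM in DMSO and 0.985 RPM in MAK683, a log2 ratio of -1.39. RFC2 and RFC1, subunits of the clamp loader, had log2 ratios of -1.28 and -1.14, and POLA2, of DNA polymerase alpha, had -1.07. Of the mitosis genes, 1 of 26 did (3.85%, 0.682 to 18.9%, also with 6.98% inside), the checkpoint kinase gene BUB1 with 2.17 and 0.985 RPM.

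For BAF and Polycomb subunit genes the intervals of the shares include the 6.98% of all protein-coding genes. Of BAF subunit genes, 3 of 25 (12%, 4.17 to 30%) had a member as tallest region. DPF2, which carries a histone reader domain, had 1.69 RPM (28 tags) in DMSO and 0.493 RPM (9 tags) in MAK683, a log2 ratio of -1.78. The core subunit gene SMARCC2, through the promoter of ENSG00000258199 whose sequence is shown above, had 2.83 and 1.37 RPM, a log2 ratio of -1.05. The summit there lay at -844 bp from the TSS of SMARCC2, so the region may not be a SMARCC2 promoter. SMARCA4, the ATPase, had 1.20 RPM (20 tags) and 0.602 RPM (11 tags) and sat at the threshold with -1.0. Of Polycomb genes, 2 of 31 (6.45%, 1.79 to 20.7%) did, both of PRC1: PCGF2, at a region nearest to PSMB3, with 3.07 and 1.48 RPM, and PHC3 with 2.11 and 0.985 RPM. A member near CBX8, of PRC1 as well, was not the tallest region of that gene. EED, which MAK683 binds, had 2.53 RPM in DMSO and 1.70 RPM in MAK683, EZH2, the methyltransferase, had 2.35 and 1.86 RPM, and SUZ12 had 1.45 and 1.31 RPM, so none of these 3 core PRC2 genes had a member as tallest region.

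A list of genes linked to PRC2 inhibition, most of them named in the study, gave no member. Because the study used these libraries, the list is not independent evidence of a direction. Of 27 autosomal genes 10 had an eligible region, 0 of 10 were members (0 to 27.8%), and their median log2 ratio was 0.30, from -0.82 to 1.05. The list does not hold every gene the study names. FBN1, which the study names as well and which is on the matrix list here, had 2.77 RPM in DMSO and 1.70 RPM in MAK683, a log2 ratio of -0.71. The lists of 21 immediate-early genes (0 to 15.5%), 20 interferon and antigen presentation genes (0 to 16.1%), 14 kidney developmental regulators and 14 matrix genes (each 0 to 21.5%) also gave 0. Their medians were -0.44, -0.48, -0.33 and -0.34. At these sizes a share equal to the 6.98% of all genes is within each interval.

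Of the other lists, 5 gave 1 gene each that is named here. These were MAFF among AP-1 genes (2.05 RPM in DMSO, 0.931 RPM in MAK683), MYL9 among targets of YAP/TEAD and SRF (1.57 and 0.712 RPM), SALL4 among oncofetal genes (2.65 and 1.20 RPM), ATF4 in the stress response (2.17 and 0.985 RPM) and MVK in cholesterol synthesis (3.25 and 1.48 RPM). These 5 had a log2 ratio of -1.14, which is what 2 times as many tags in DMSO as in MAK683 gives. The summit of the MVK region lay at -226 bp from its TSS and nearer, at -64 bp, to that of MMAB. Members beside a taller region lay at -3723 bp from the TSS of FOS, with 1.20 and 0.493 RPM, and at -3545 bp from that of CCN2, with 1.45 and 0.657 RPM. COL3A1, a fibrillar collagen gene, had 2 eligible regions of equal DMSO height, and only the one over its TSS was a member, with 1.39 RPM (23 tags) in DMSO and 0.438 RPM (8 tags) in MAK683. The other had 24 tags in MAK683 and was counted as the tallest region of COL3A1. The 0 of the matrix list therefore rests on how this tie was broken.

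**Figure D5:**
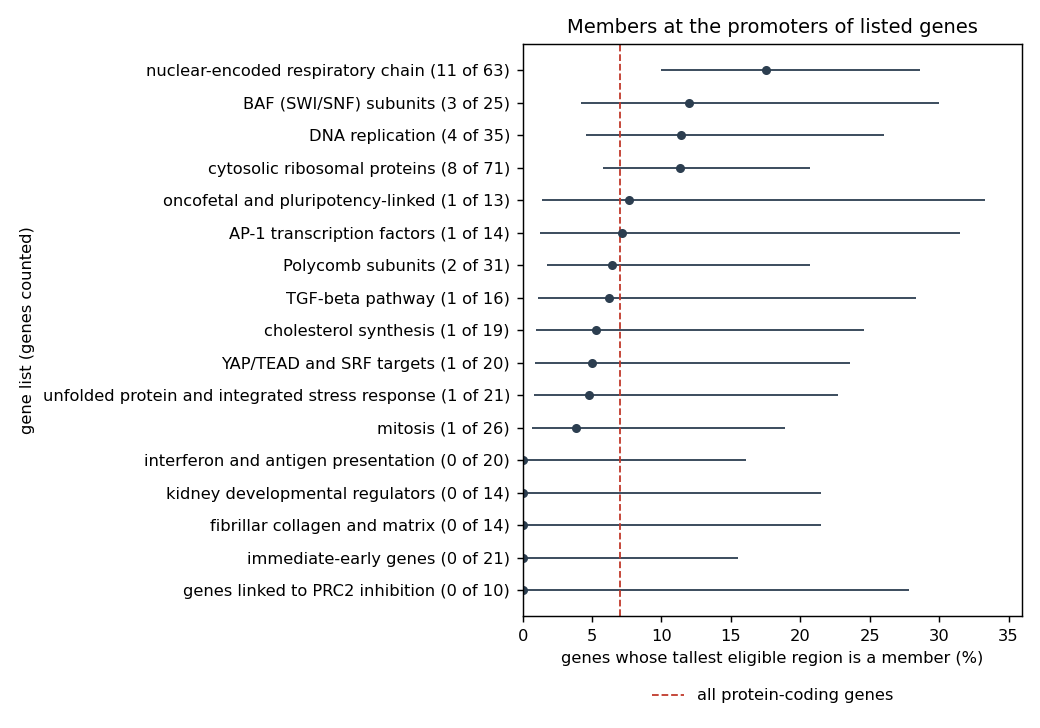
Share of genes whose tallest eligible region within 3 kb of the TSS was a member (x axis, %), for 17 gene lists with the genes counted in parentheses and 95% Wilson intervals. The dashed line marks the 6.98% of all 11778 protein-coding genes. The interval of the respiratory chain, 10.0 to 28.6%, is the only one that lies wholly above it.

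Members were found near each other more often than other regions were found near members. Of the members 55.4% had another member within 100 kb, against 39.7% of other eligible regions, and 16.4% of the eligible neighbours of members were members against 12.5% of the neighbours of the others. Of all eligible regions 10.5% were members. The first 2 shares depend on how many eligible neighbours a region has. None of these shares was split by distance to a TSS or by GC content, with which membership also varied. Neighbours that were not members had almost the same log2 ratio around both, with medians of -0.55 and -0.51. In 1 Mb windows with at least 20 eligible regions, 44 of 361 held 25% or more members and 25 held none. The windows below were chosen by their number of members, so their shares are a description.

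In several of these windows most eligible regions were distal. The genes named here were taken after the windows had been seen. On chromosome 2 from 164 to 165 Mb, around FIGN, 10 of 24 eligible regions (41.7%) were members, 22 of the 24 were distal, and the median log2 ratio of all 24 was -0.96. On chromosome 10 from 54 to 55 Mb, 10 of 34 were members, all distal, mostly nearest to the noncoding LNCAROD, and the median of the 34 was -0.85. The tallest of these had 2.65 RPM (44 tags) in DMSO and 1.15 RPM (21 tags) in MAK683. On chromosome 7 from 25 to 26 Mb, 13 of 47 were members, 7 of them nearest to ENSG00000233824, of which the tallest had 2.71 and 1.20 RPM. On chromosome 15 from 67 to 68 Mb, 11 of 32 were members, mostly nearest to IQCH-AS1, where the tallest of these had 1.87 RPM in DMSO and 0.766 RPM in MAK683. The medians of these windows include the members that the windows were chosen by.

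Copies of the sequence did not set members apart. A second match of at least 95% of the summit window was found elsewhere in the genome for 69 members (2.81%) and 635 other eligible regions (3.03%). For comparison, 407 of the 16077 shared regions with a MAK683 height of at least 1 RPM, 2.53%, were at least doubled, a group with no region in common with the members by its definition.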

How the data were processed

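ATAC-seq of G401 cells was measured in 1 DMSO and 1 MAK683 library, each with a deposited peak table. According to the study's methods, the authors trimmed reads with Trim-galore and aligned them with Bowtie2 to hg19. Per the file headers, peaks were called per library with MACS 2.1.1.20160309, without a control, with tags read as single ends, shifted by 100 bp and extended to 200 bp, 1 tag kept per position, and a q-value limit of 0.05. The study's methods name another MACS version. The deposited pileup is a whole number of tags over the summit, and MACS did not scale it for depth. The deposited fold enrichment is the pileup over a genome-wide background. The deposited −log10 p and −log10 q values come from the same background, per the file headers.

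Peaks were merged within chromosomes 1 to 22 and scaled to tags after filtering, 16598348 in DMSO and 18265284 in MAK683. No filter on low values was applied beyond the DMSO height of 1 RPM. Gene positions came from GENCODE release 44 on GRCh37 and sequences from that genome, and second matches from minimap2 2.31. Count intervals are exact Clopper-Pearson, log2 intervals rest on Poisson counts, shares have Wilson intervals, and all cover counting error at 95%. Scripts used Python 3.11.15 with numpy 2.4.6, pandas 2.3.3, scipy 1.17.1 and pysam 0.24.0 and were tested on simulated data.

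The members, gene lists and motifs were chosen with earlier results of these data known. Regions named were the 12 tallest in DMSO, the 12 with the lowest log2 ratio among those whose interval ended below 0, up to 4 members per gene list by DMSO height, and the 3 on each side of the threshold. A region took the name of the gene with the nearest TSS. Sequences were shown for named members with an AP-1 or CTCF match or a TSS, outside UTRs. Alternatives changed the depth scaling, the measure of height, the limits on height, q and summit distance, the TSS definition and the windows. Results for some genes are not reported here.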

Additional observations from a re-analysis of the deposited data

How the results depend on the processing

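The number of members depended on the scaling and on the limits. Of 60 values recomputed under the alternatives, 16 stayed close to the reported one and 44 moved. Values after "against" are those of the other eligible regions under the same alternative. Without depth scaling there were 1464 members (6.26% of eligible regions). Of these, 43.1% against 61% lay within 3 kb of a TSS, with a median GC of 55.2% against 61.7%. With depth from all tags there were 1421 (59.2% against 75.3% near a TSS, GC 60.2% against 65.2%), and with fold enrichment 1518 (6.49%). Relative to the median of eligible regions there were 113 (0.483%, 42.5% against 59.9% near a TSS, GC 49.8% against 61.2%). With a DMSO height of at least 2 RPM there were 558 (7.54%). Of these, 75.4% against 85.1% were near a TSS, GC was 63.4% against 66.2%, and 3.41% against 3.27% had an AP-1 match. With summits at most 150 bp apart there were 1473 (9.82%, 47.8% against 61.7% near a TSS, GC 57.2% against 62.2%). Keeping members whose counting interval ended below 0 left 8.71% of eligible regions, of which 48.7% against 60.9% were near a TSS. With a −log10 q of at least 10 there were 641 (3.66%). Of these, 71.6% against 67.9% were near a TSS, GC was 63.2% against 63.7%, and 3.43% against 4.09% had an AP-1 match. With a mean height of both libraries of at least 1 RPM, an alternative chosen after seeing the data, there were 1295 (6.61%). Of these, 58.5% against 66.4% were near a TSS, GC was 59.7% against 63.2%, and 3.55% against 4.22% had an AP-1 match. Under a TSS window of 1 kb 35.3% of members against 54% were near a TSS, and under protein-coding TSSs alone 35.1% against 50%. The median GC of whole regions was 51.4% against 55.2%, and in the wider summit window 9.65% of members against 8.61% held an AP-1 match. The cause of these shifts was not tested. The ETS share near TSSs, the copies and the GC of the surroundings were also examined after seeing the data, and the ETS share ran from 8.33% to 21.4% over the alternatives. At 17 tags for 1 RPM in DMSO, 1 tag more or less changes the membership of low regions. With 1 library per group, variation between cultures was not measured.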
